A study of Mus musculus with 2 samples.

Results

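The 9 genes described here are brakes of the cell cycle and the early cyclins and kinase that act against them: Cdkn1b, Cdkn2d, Btg1, Btg2, Tob1, Rbl2, Ccnd2, Ccnd3 and Cdk6. They were taken by name as a fixed list from the 20794 genes of a raw single-cell RNA matrix, and all 9 were found in it by symbol and gene identifier. GD2TIF cells are T cells of a Cas9 transgenic mouse that were activated and infected with a retrovirus. That virus targeted Bcor, a Polycomb corepressor gene, and Zc3h12a, the gene of the RNase Regnase-1, and brought in 14g2a, a chimeric antigen receptor against the ganglioside GD2. Each immunocompetent C57BL/6 mouse received 1000000 cells, and 2 months later 1000000 CD8+Thy1.1+ GD2TIF cells were sorted from spleen for 1 library of RNA and 1 of T cell receptors (TCR) on Singleron microwell chips. All cells of both libraries carry the same treatment, and no unedited, untransferred or earlier cells were available for comparison. How many mice gave cells is not stated in the labels.

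The matrix held 10387 cell barcodes, of which 10338 passed a filter on genes and mitochondrial share. They carried 22280465 unique molecular identifiers (UMIs, each a captured RNA molecule), and the median cell had 1922 UMIs and 977 genes. The 12 T cell markers stood between 163 and 3577 counts per 1000000 UMIs (CPM). Of 5 B cell markers, 2 or more were found in 57 cells (0.551%), and of the 5 erythroid markers in the matrix in 17 cells. No cell had 2 markers of monocytes, neutrophils, dendritic cells or stromal cells, 1 had 2 NK cell markers and 4 had 2 CD4 or regulatory T cell markers. With 1 library of each kind there is no replicate, so no test was run. The 95% intervals given here reflect counting error alone, not the spread between mice or libraries.

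A resting T cell is held out of the cycle at several steps. Cdkn1b (p27Kip1) and Cdkn2d (p19INK4d) are inhibitors of cyclin-dependent kinases, the first acting mainly on cyclin E and cyclin A complexes and the second on CDK4 and CDK6. Btg1, Btg2 and Tob1 are antiproliferative adaptors that bring the CCR4-NOT deadenylase to messenger RNAs, and Btg1 and Btg2 are known to keep naive mouse T cells quiescent by limiting their messenger RNA. Rbl2 (p130) is the pocket protein that joins E2F4 in the DREAM repressor complex of resting cells. Ccnd2 and Ccnd3 are the D cyclins of lymphocytes, which bind CDK4 or CDK6, the product of Cdk6, to phosphorylate pocket proteins and open the way into S phase.

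All 9 genes were detected over the whole population, with intervals above the floor of 3 UMIs (0.135 CPM). Among the kinase inhibitors, Cdkn1b (chr6:134920401-134925525) stood at 162 CPM (156 to 167, 3603 UMIs). Cdkn2d (chr9:21288459-21291421) stood at 130.3 CPM (126 to 135, 2903 UMIs). Coordinates are of GRCm38, from RefSeq annotation. Levels here are not scaled for transcript length, so each gene is compared only with itself across cells and families.

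In the BTG and TOB family, Btg1 (chr10:96617001-96622813) stood at 521 CPM (512 to 531, 11612 UMIs). Btg2 (chr1:134074865-134079155) stood at 233 CPM (227 to 239.9, 5201 UMIs). Tob1 (chr11:94209842-94215495) stood at 44.2 CPM (41.5 to 47.1, 985 UMIs). The pocket protein gene Rbl2 (chr8:91070057-91123844) stood at 131 CPM (126 to 136, 2915 UMIs), and its locus overlaps Aktip.

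The D cyclin gene Ccnd2 (chr6:127125162-127152188, overlapping 9330179D12Rik) stood at 149 CPM (144 to 154, 3310 UMIs). Ccnd3 (chr17:47505051-47599689, overlapping Bysl and Gm41590) stood at 136 CPM (131 to 141, 3034 UMIs). Cdk6 (chr5:3341004-3531008, overlapping Gm36470 and Gm29868) stood at 14.0 CPM (12.5 to 15.6, 312 UMIs). Whether counting used strand is not stated in the labels, so reads of Rbl2, Ccnd2, Ccnd3 and Cdk6 may include some of the overlapping genes.

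Windows of 300 bases around a transcript start, 250 before and 50 after it, were found in RefSeq (GRCm38.p6) for 8 of the 9 genes, with 9 windows in all. The windows of 5 genes are shown because these 5 were called in the cycling-marker cells described further down. Those of Cdk6, Tob1 and Cdkn2d and the second of Ccnd3 lie at a start downstream of the gene start given above. They are written 5′ to 3′ on the strand of the gene, and capitals mark motif letters. The plus strand window of Cdkn1b is chr6:134920151-134920450, that of Btg1 is chr10:96616751-96617050 and that of Cdk6 is chr5:3343643-3343942, while the minus strand windows are chr1:134079106-134079405 for Btg2 and chr9:21291160-21291459 for Cdkn2d.
Cdkn1b: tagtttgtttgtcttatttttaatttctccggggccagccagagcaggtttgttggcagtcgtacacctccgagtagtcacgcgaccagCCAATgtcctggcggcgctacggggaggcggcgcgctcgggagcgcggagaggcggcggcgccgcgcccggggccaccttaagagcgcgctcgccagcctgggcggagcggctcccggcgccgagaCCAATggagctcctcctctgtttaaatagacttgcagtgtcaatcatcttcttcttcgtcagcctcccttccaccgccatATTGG
Cdkn2d: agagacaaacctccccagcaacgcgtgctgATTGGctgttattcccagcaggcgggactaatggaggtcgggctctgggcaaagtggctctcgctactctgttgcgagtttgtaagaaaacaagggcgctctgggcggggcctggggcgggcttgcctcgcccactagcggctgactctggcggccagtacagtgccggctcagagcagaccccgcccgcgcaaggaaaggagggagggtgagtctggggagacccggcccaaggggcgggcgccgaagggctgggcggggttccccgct
Btg1: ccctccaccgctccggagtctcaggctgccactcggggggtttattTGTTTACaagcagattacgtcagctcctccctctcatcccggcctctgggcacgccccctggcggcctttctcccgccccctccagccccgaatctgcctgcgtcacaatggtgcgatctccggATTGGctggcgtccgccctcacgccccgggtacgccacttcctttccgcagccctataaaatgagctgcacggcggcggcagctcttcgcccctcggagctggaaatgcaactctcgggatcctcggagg
Btg2: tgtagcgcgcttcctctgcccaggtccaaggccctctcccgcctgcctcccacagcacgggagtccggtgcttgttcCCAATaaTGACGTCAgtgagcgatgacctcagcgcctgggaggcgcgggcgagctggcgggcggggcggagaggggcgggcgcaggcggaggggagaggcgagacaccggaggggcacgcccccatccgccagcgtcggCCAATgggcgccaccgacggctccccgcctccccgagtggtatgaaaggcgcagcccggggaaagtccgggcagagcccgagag
Cdk6: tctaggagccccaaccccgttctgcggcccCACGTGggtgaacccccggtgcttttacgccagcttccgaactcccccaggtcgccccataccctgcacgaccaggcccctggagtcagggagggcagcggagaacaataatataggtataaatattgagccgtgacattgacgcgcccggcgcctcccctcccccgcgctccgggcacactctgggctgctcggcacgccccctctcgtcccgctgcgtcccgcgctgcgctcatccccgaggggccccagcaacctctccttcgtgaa

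Both strands were searched for 5 motifs: the forkhead letters TGTTTAC, the cyclic AMP response element TGACGTCA, the E-box CACGTG, the E2F letters TTTNGCGC and the CCAAT box CCAAT. The Btg1 window held the forkhead letters at bases 47 to 53 and 1 CCAAT box, read as ATTGG on the shown strand. The Btg2 window held the cyclic AMP response element at bases 85 to 92, beside a CCAAT box at bases 78 to 82 and another at bases 217 to 221. The Cdkn1b window held 3 CCAAT boxes, the Cdkn2d window 1, read as ATTGG at bases 31 to 35, and the Cdk6 window an E-box at bases 31 to 36. The cyclic AMP element and the E-box read the same on both strands and were each counted once.

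Of all 32851 promoter windows of this length, 3.65% held the forkhead letters, 1.79% the cyclic AMP element, 7.15% the E-box, 1.38% the E2F letters and 37.4% a CCAAT box. Of the windows not shown, the upstream start of Ccnd3 held the forkhead letters, its downstream start a CCAAT box and Tob1 2 CCAAT boxes. The Rbl2 window held none of the 5 motifs, and the E2F letters were in no window of the list. These matches describe letters in the windows only.

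The share of cells with a UMI depends on depth, so every cell was thinned to 1000 UMIs, which kept 9456 cells and left out 882 shallower ones. In thinned cells Btg1 was seen in 37.8% (36.8 to 38.8), Btg2 in 19.8% (19.01 to 20.6) and Tob1 in 4.13% (3.74 to 4.56). Cdkn1b was seen in 14.5% (13.8 to 15.3), Cdkn2d in 11.8% (11.1 to 12.4) and Rbl2 in 11.4% (10.8 to 12.1). Ccnd2 was seen in 11.8% (11.2 to 12.5), Ccnd3 in 12.4% (11.7 to 13.0) and Cdk6 in 1.20% (0.986 to 1.43) of thinned cells. For comparison, the B cell marker Cd79a had a UMI in 0.190% of thinned cells and Cd4 in 0.0529%, and the 9 shares lay above those of these 2 genes. Single markers of the B cell and dendritic cell lists reached 13.1% and 12.4% of unthinned cells, above the unthinned 8.10% of Tob1 and 2.42% of Cdk6. Without thinning the shares ran up to 57.4% for Btg1, 26.2% for Cdkn1b, 21.0% for Ccnd2 and 2.42% for Cdk6.

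A UMI of at least 1 of the 9 genes was present in 7118 thinned cells (75.3%). A brake, meaning Cdkn1b, Cdkn2d, Btg1, Btg2, Tob1 or Rbl2, was seen in 68.1% of thinned cells, and a D cyclin or Cdk6 in 23.5%. Both kinds were seen in 1548 cells (16.4%), against 1516 cells (16.03%) that the product of the shares gives. The count of cells with both was thus close to that product at the depth of 1000 UMIs. Of the 36 pairs of the 9 genes, 1 had an interval that excludes 1, without adjustment for the number of pairs. In that pair Cdkn2d and Ccnd3 were found together in 163 cells, 1.19 times the product of their shares (1.01 to 1.38). Ccnd2 and Cdk6 were found together in 21 cells, 1.57 times the product (0.971 to 2.40), with an interval that holds 1.

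The variance of thinned counts over cells, divided by the mean, is larger for genes that are concentrated in some cells. It can also grow with the mean count, and the genes compared were not matched for level. Mean thinned counts were 0.533 for Btg1, 0.0442 for Tob1 and 0.0133 for Cdk6, so these 3 genes cannot be ranked by evenness from it. The measure was 1.32 for Ccnd2, at percentile 95.7 of the 8311 genes compared, and 1.28 for Btg1, at percentile 92.3. Cdk6 stood at 1.24, Btg2 at 1.20 and Cdkn2d at 1.19. Ccnd3, Cdkn1b, Tob1 and Rbl2 stood at 1.14, 1.13, 1.12 and 1.12, below the median gene at 1.15. The 2 D cyclins, with like mean thinned counts of 0.144 for Ccnd2 and 0.141 for Ccnd3, lay on opposite sides of the median gene.

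Level and cell depth moved together for part of the list. Cells were ranked by UMIs and divided into 4 bins of equal size, with median depths of 1152, 1685, 2204 and 3229 UMIs. Cdkn1b had 208, 176, 164 and 139.6 CPM from the shallowest to the deepest bin, and Btg2 had 273, 249.9, 235 and 213 CPM. Cdkn2d had 146, 135, 132 and 123 CPM, and Ccnd3 had 151, 149.5, 131 and 129 CPM. Btg1 had 493 CPM (479 to 508) in the deepest bin and 539 to 546 CPM in the others. Ccnd2 ran the other way, with 123, 129.8, 135 and 173 CPM. In the deepest bin the interval of Ccnd2 (165 to 182 CPM) lay wholly above those of the other 3 bins, whose highest bound was 145 CPM. Rbl2 and Tob1 showed no such order, with 127 to 140.4 CPM and 40.4 to 48.1 CPM over the bins. Median mitochondrial share was 4.05%, 3.65%, 3.43% and 3.22% over the same bins, and its part in these levels was not tested.

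**Figure D1:**
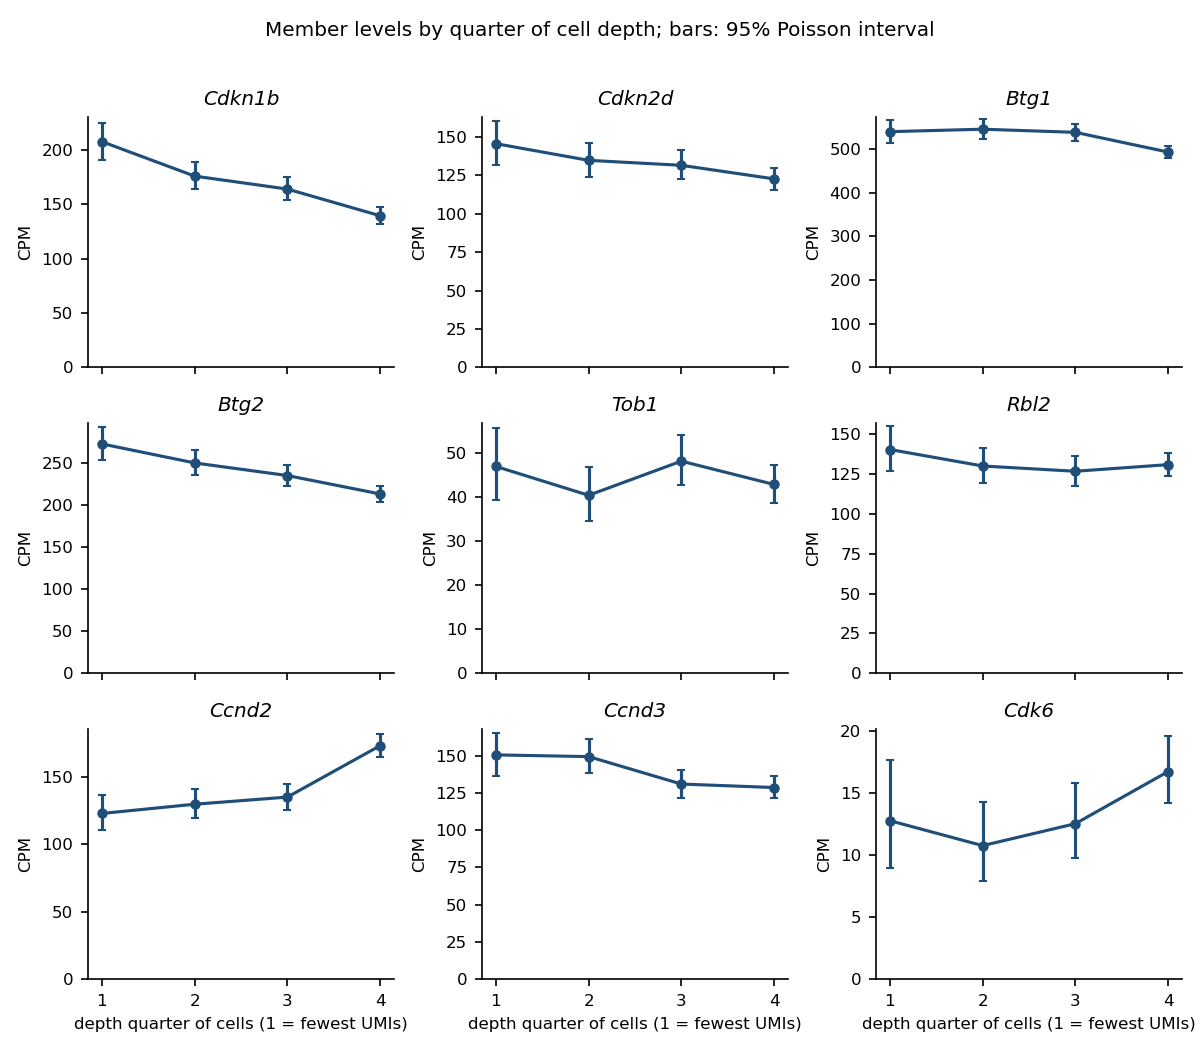
Level of each of the 9 genes in CPM (vertical axes, from 0) against the depth bin of the cells (1 = fewest UMIs, 4 = most). Points are sums over all cells of a bin and bars 95% Poisson intervals. Cdkn1b runs from 208 CPM in bin 1 to 139.6 CPM in bin 4, and Ccnd2 from 123 to 173 CPM.

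Sorting and dissociation raise immediate early genes, to which Btg2 is often counted, so cells were also split by the summed UMIs of 17 immediate early and dissociation genes such as Fos, Jun and Hspa1a. Of thinned cells, 4334 lay above the median of 6 UMIs and 5122 at or below it. A difference is called here where it is at least 1.5-fold in either direction, its interval excludes 1, and the gene has at least 200 UMIs over both sides. By this rule 1.03% of 6017 genes were called, and 1 of the 9 genes, Tob1, was among them. Tob1 had 54.9 CPM in cells above and 35.1 CPM in cells at or below the median, a ratio of 1.56 (1.28 to 1.91). Btg2 had 269.96 and 215 CPM in the same cells, a ratio of 1.25 (1.15 to 1.36). Cdk6, which had too few UMIs to be called, had 9.23 CPM above and 16.8 CPM at or below the median, a ratio of 0.550 (0.368 to 0.809). The other 6 ratios lay between 0.825 for Ccnd2 and 1.19 for Cdkn2d.

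Families of cells were then compared. T cells that descend from 1 cell share the nucleotide sequence of their rearranged TCR beta chain (TRB). Of 5479 barcodes in the TCR library, 4590 were also in the RNA matrix, and 3882 filtered cells carried exactly 1 productive TRB. They held 432 distinct TRB sequences. The 12 families of 50 or more cells held 2614 cells (67.3%), in sizes of 50 to 882 cells, and the next family had 40. A family is named here by its most frequent V and J labels. A name with 2 V segments, as in TRBV12-2+TRBV13-2, is 1 V label of the contig table. The junction sequences of the 3 families that the results turn on are shown 5′ to 3′ as deposited, in lower case throughout, from a receptor locus on chromosome 6.
TRBV12-1 TRBJ2-4: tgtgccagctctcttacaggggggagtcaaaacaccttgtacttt
TRBV13-3 TRBJ2-1: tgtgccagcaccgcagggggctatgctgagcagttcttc
TRBV12-2+TRBV13-2 TRBJ2-3: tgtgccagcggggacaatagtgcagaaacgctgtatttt

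The alpha chains (TRA) limit these families. In each family the most frequent productive TRA was carried by 29.9% to 92.6% of the cells with a TRA. Of those cells, 5.49% to 53.2% carried a TRA that is the main one of another of the 12 families. Whether such barcodes hold RNA of more than 1 cell was not tested. Called family differences are given for all single-TRB cells of a family and for cells that carry the main TRA and no other, 1457 of 2614, an alternative chosen after the data had been seen. Family depth ran from 91810 to 1939417 UMIs, and the floor of 3 UMIs from 1.55 to 32.7 CPM.

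Each family was set against all other single-TRB cells. Cdk6 had under 200 UMIs there and could not be called, which left 8 genes and 96 pairs of gene and family. Of these pairs 8 (8.33%) were called, against 8.91% of all 69792 pairs of gene and family. At least 1 call was made for 5 of the 8 genes (62.5%), against 57.2% of 5816 genes. The share of genes called ran from 5.88% to 11.7% between families. It was 7.32% in TRBV15 TRBJ1-1, 10.9% in TRBV17 TRBJ1-1, 8.18% in TRBV29 TRBJ1-1, 7.82% in TRBV15 TRBJ2-5 and 8.24% in TRBV12-2+TRBV13-2 TRBJ2-5, and in these 5 families 0 of the 8 genes were called. The list as a whole was therefore called about as often as genes in general, and its differences lay in single genes and families.

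**Figure D2:**
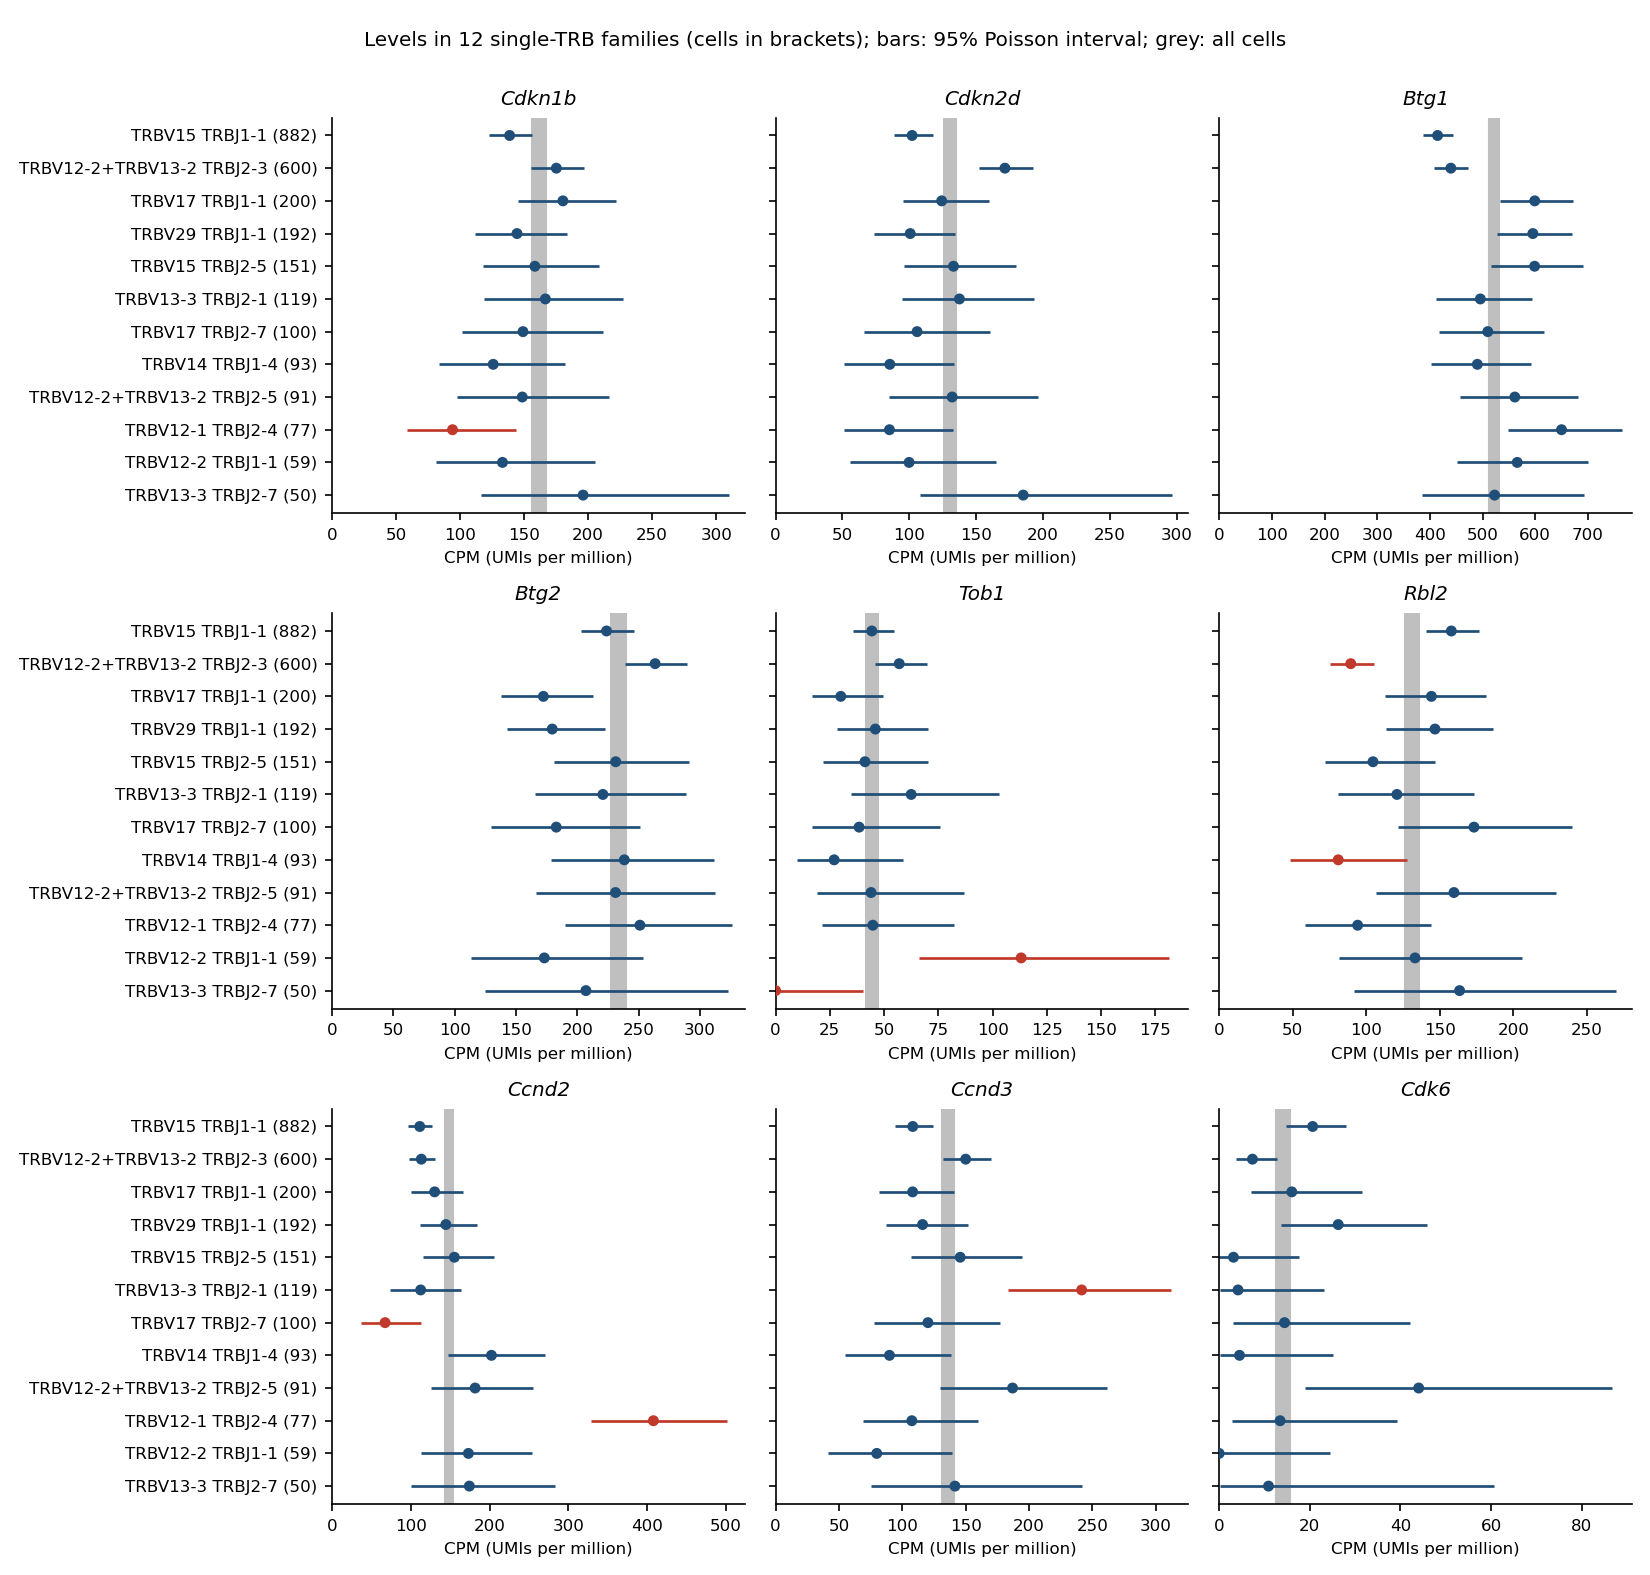
Level of each of the 9 genes in CPM (horizontal axes, from 0) in each of the 12 families, with cells in brackets. Points are sums over the cells of a family, bars 95% Poisson intervals, red marks a called difference from other single-TRB cells, and the grey band is the interval over all cells. Ccnd2 in TRBV12-1 TRBJ2-4 stands at 408 CPM, to the right of all other families.

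The D cyclins took 3 of the 8 calls. Ccnd2 had a lowest family level of 67.3 CPM, a median of 149.9 CPM and a highest of 408 CPM, with the second highest family at 202 CPM. The highest was TRBV12-1 TRBJ2-4, where 77 cells held 91 Ccnd2 UMIs (408 CPM, 328 to 501). Other single-TRB cells had 136 CPM, a ratio of 2.99 (2.39 to 3.71), in a family where 11.7% of genes were called. Cells with the main TRA only had 483 CPM in this family and 123 CPM in the other families, a ratio of 3.92 (3.01 to 5.04). No single cell carried the result, since 37 of the 77 cells had a Ccnd2 UMI and the highest had 8. After thinning, 19.5% of its cells (11.3 to 30.1) and 11.6% of other single-TRB cells had a Ccnd2 UMI, and the interval holds the second share. This family also had the highest median depth, 2622 UMIs, and Ccnd2 stood at 173 CPM in the deepest bin of all cells. The part of depth in this result was not tested.

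The lowest Ccnd2 level was that of TRBV17 TRBJ2-7, with 14 UMIs in 100 cells (67.3 CPM, 36.8 to 113). Other single-TRB cells had 145 CPM, a ratio of 0.464 (0.253 to 0.782), and 8.43% of genes were called in this family. Only 29.9% of its cells with a TRA carried its main TRA. In the 22 cells with that TRA alone, 4 UMIs gave 73.1 CPM, against 139.9 CPM in the other families, a ratio of 0.523 (0.142 to 1.35) whose interval holds 1.

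Ccnd3 ran from 79.9 to 242 CPM over the families, with a median of 118 CPM. It was called in 1 family, TRBV13-3 TRBJ2-1, where 119 cells held 58 UMIs (242 CPM, 183 to 312). Other single-TRB cells had 132 CPM, a ratio of 1.83 (1.38 to 2.38), and 9.94% of genes were called in this family. With the main TRA alone the levels were 321 CPM in this family and 127 CPM in the other families, a ratio of 2.53 (1.72 to 3.61). In this family 40 of 119 cells had a Ccnd3 UMI and the highest had 6. After thinning, 17.7% of its cells (11.2 to 26.0) had a Ccnd3 UMI. The share in other single-TRB cells was 12.5%, which that interval holds.

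The balance of the 2 cyclins restates these calls, since the 2 families set side by side had the highest Ccnd3 and the highest Ccnd2. Ccnd3 gave 68.2% of D cyclin UMIs in TRBV13-3 TRBJ2-1 (57.2 to 77.9) and 20.9% in TRBV12-1 TRBJ2-4 (13.9 to 29.4), against 47.8% over all cells (46.6 to 49.1). In the largest family, TRBV15 TRBJ1-1, the share was 49.3% (44.4 to 54.2). The third D cyclin gene, Ccnd1, had 1 UMI in the whole library.

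**Figure D3:**
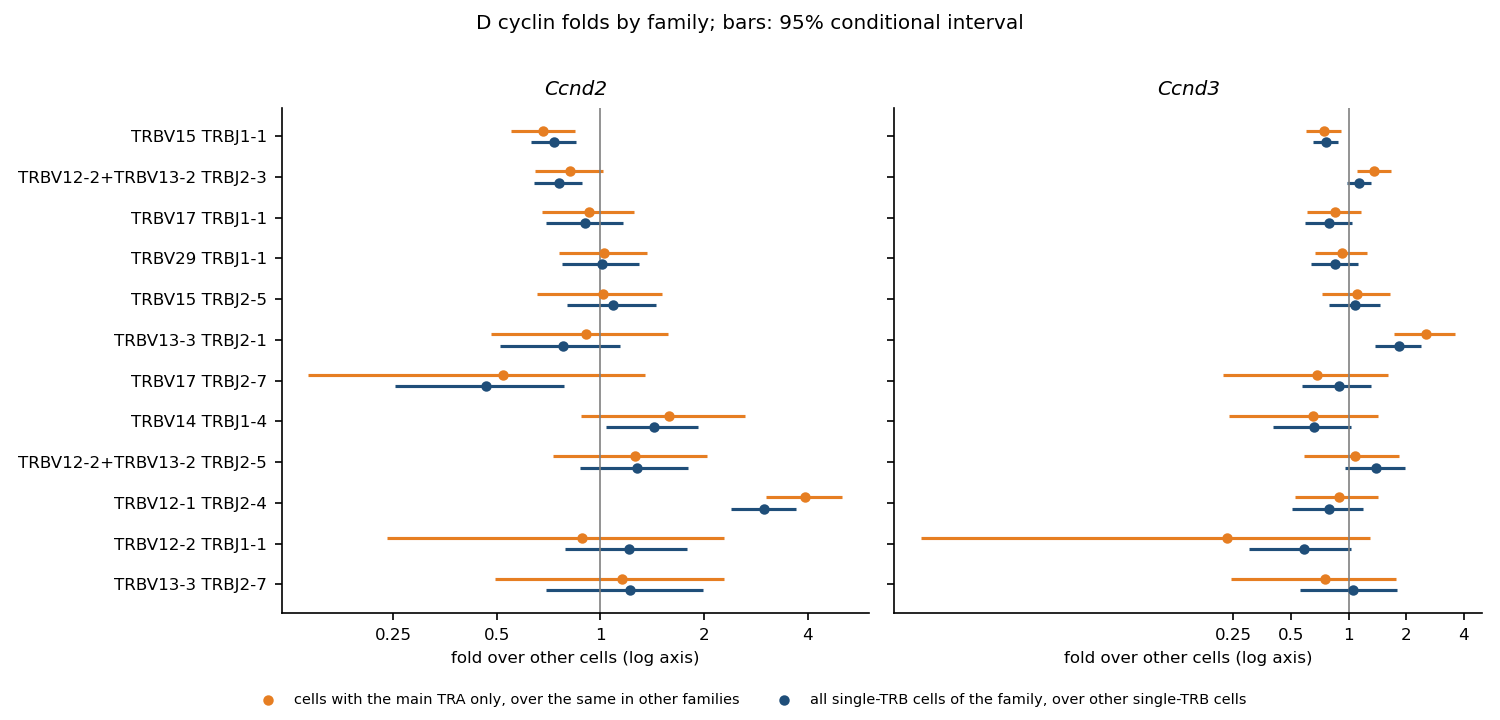
Fold of Ccnd2 (left) and Ccnd3 (right) in each of the 12 families over other cells, on log axes. Orange points use cells with the main TRA only, blue points all single-TRB cells, and bars are 95% conditional intervals. Ccnd2 in TRBV12-1 TRBJ2-4 lies at 3.92 and 2.99, and Ccnd3 in TRBV13-3 TRBJ2-1 at 2.53 and 1.83.

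Among the kinase inhibitors, Cdkn1b ran from 94.1 to 196 CPM over the families, with a median of 149 CPM. Its 1 call was in TRBV12-1 TRBJ2-4, the family with the highest Ccnd2, where it had 94.1 CPM (58.3 to 144), against 154 CPM in other single-TRB cells, a ratio of 0.612 (0.378 to 0.940). With the main TRA alone the ratio was 0.629, and its interval (0.341 to 1.07) holds 1. After thinning, 10.4% of the cells of this family (4.59 to 19.4) had a Cdkn1b UMI. The share in other single-TRB cells was 14.0%, which that interval holds. This family had the highest median depth, 2622 UMIs, and Cdkn1b was lowest in the deepest bin of all cells, at 139.6 CPM. The part of depth in this result was not tested. Cdkn2d ran from 85.2 CPM, in the same family, to 185 CPM and was not called in any. In cells with the main TRA only, Cdkn2d had 184 CPM in TRBV12-2+TRBV13-2 TRBJ2-3 and 107 CPM in the other families, a ratio of 1.71 (1.40 to 2.09). The same setting gave 89.8 CPM in TRBV15 TRBJ1-1 and 143 CPM in the other families, a ratio of 0.627 (0.497 to 0.784). The ratios over all single-TRB cells were 1.45 and 0.752 for these families, in the same directions. Both ratios with the main TRA only pass the calling rule, and neither does over all single-TRB cells.

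Btg1 and Btg2 had the smallest ratios of highest to lowest family in the list. Btg1 ran from 415 to 649.8 CPM and Btg2 from 172 to 263 CPM, and neither was called in a family. Btg1 was lowest in the 2 largest families, with 415 CPM in TRBV15 TRBJ1-1 and 439.8 CPM in TRBV12-2+TRBV13-2 TRBJ2-3. Tob1 was the most variable brake. In TRBV12-2 TRBJ1-1, 17 UMIs in 10 of 59 cells gave 113 CPM (65.9 to 181), against 44.0 CPM in other single-TRB cells, a ratio of 2.57 (1.48 to 4.17), and 8.53% of genes were called there. This did not hold in cells with the main TRA only, where 16 cells had 1 Tob1 UMI and the ratio was 0.675 (0.0170 to 3.81). In TRBV13-3 TRBJ2-7, 50 cells held no Tob1 UMI (0 to 40.2 CPM), with the floor of 3 UMIs at 32.7 CPM. Other single-TRB cells had 45.7 CPM, and 5.88% of genes were called in that family. Taken at this floor, the Tob1 level of that family would not be 1.5-fold lower. Its 26 cells with the main TRA only held 0 Tob1 UMIs, and the interval of their ratio (0 to 1.61) holds 1.

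Rbl2 ran from 80.9 to 173 CPM, with a median of 139 CPM over the families. In TRBV12-2+TRBV13-2 TRBJ2-3, the second largest family, 146 UMIs in 600 cells gave 89.4 CPM (75.5 to 105), against 138 CPM in other single-TRB cells. The ratio was 0.650 (0.543 to 0.774), 9.59% of genes were called, and cells with the main TRA only gave 0.638 (0.494 to 0.816). Thinned cells with an Rbl2 UMI made up 7.30% of this family (5.33 to 9.71), against 12.3% of other single-TRB cells. Rbl2 was also called lower in TRBV14 TRBJ1-4, with 80.9 CPM, against 129.9 CPM in other single-TRB cells, a ratio of 0.623 (0.368 to 0.989) in a family where 10.4% of genes were called. With the main TRA only, 7 UMIs gave a ratio of 0.754 there (0.302 to 1.57). Immediate early and dissociation genes took 0.9998% of the UMIs of TRBV12-2+TRBV13-2 TRBJ2-3, against 0.547% to 0.798% in the other 11 families. Their part in the Rbl2, Cdkn2d and Cdk6 levels of that family was not tested.

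Cdk6 had 90 UMIs over the 12 families. Its lowest family, TRBV12-2 TRBJ1-1, had 0 UMIs (0 to 24.6 CPM), with the floor of 3 UMIs at 19.97 CPM. Its highest was TRBV12-2+TRBV13-2 TRBJ2-5, with 44.0 CPM from 8 UMIs. The largest family had 40 UMIs and 20.6 CPM, against 12.4 CPM in other single-TRB cells, a ratio of 1.66 (1.11 to 2.45). With the main TRA only it had 19 UMIs and 16.7 CPM, against 11.98 CPM in the other families, a ratio of 1.397 (0.737 to 2.59) whose interval holds 1. The second largest family had 12 UMIs and 7.35 CPM, against 15.8 CPM in other single-TRB cells, a ratio of 0.466 (0.234 to 0.847). In cells with the main TRA only, that family had 2 UMIs and 2.39 CPM, against 17.1 CPM in the other families, a ratio of 0.140 (0.0165 to 0.536). None of these Cdk6 ratios could be called. The 1268 single-TRB cells outside the 12 families had levels of 0.847 to 1.20 times those of the family cells for all 9 genes.

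To describe evenness over families, the coefficient of variation of the 12 levels was taken with its Poisson part removed, and ranked among the 4716 genes with at least 200 UMIs in the families. The median gene stood at 0.153. Ccnd2 stood at 0.499 (percentile 96.6), Tob1 at 0.492 (96.5) and Ccnd3 at 0.290 (81.7). Cdkn2d and Rbl2 were near the median, at 0.183 and 0.169. Btg1 stood at 0.101, Cdkn1b at 0.0691 and Btg2 at 0.0316 (percentile 23.0). Highest over lowest family was 6.06 for Ccnd2 (3.43 to 11.5), 3.03 for Ccnd3 (1.61 to 6.19), 1.57 for Btg1 (1.304 to 1.87) and 1.53 for Btg2 (1.21 to 1.95). For Tob1 the highest family stood at 113 CPM (65.9 to 181), and the lowest had 0 UMIs (0 to 40.2 CPM). The first level is 3.46 times the floor of 3 UMIs in the lowest, a point value and not a lower bound. With the main TRA only, that highest family had 30.8 CPM from 1 UMI. Cdk6 did not pass the filter.

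**Figure D4:**
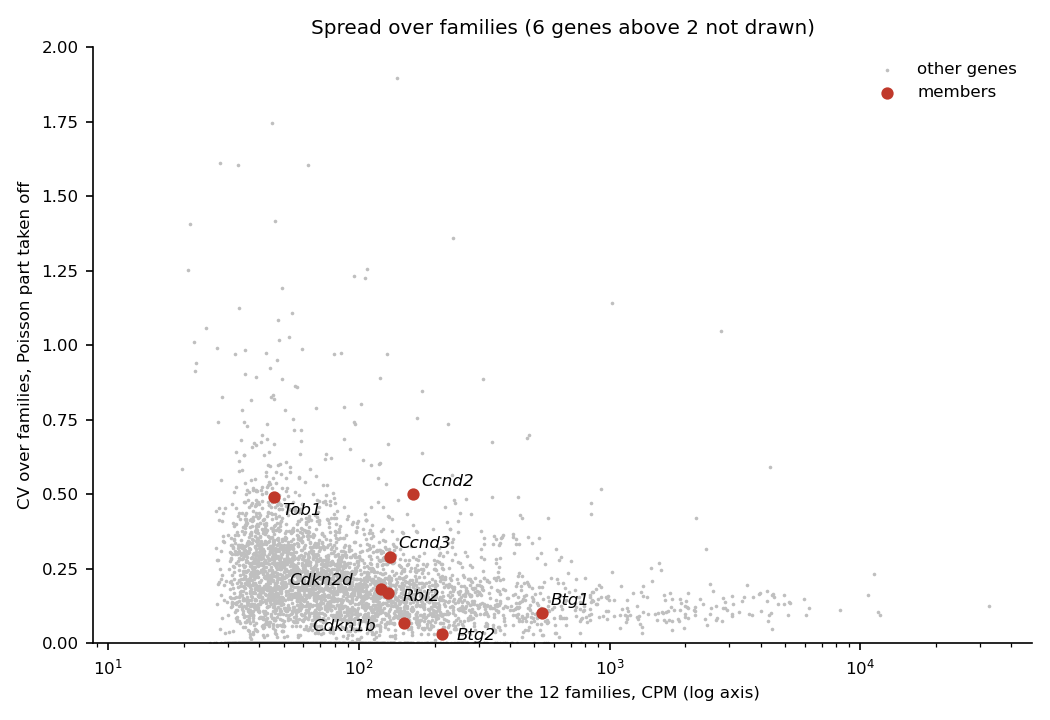
Coefficient of variation over the 12 families, with the Poisson part removed (vertical axis), against mean family level in CPM (log axis). Grey points are the other genes with at least 200 UMIs in the families, red points the 8 genes of the list that passed, and 6 genes above 2 are not drawn. Ccnd2 (0.499) and Tob1 (0.492) lie highest of the 8, and Btg2 (0.0316) lies near the bottom.

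The genes with the most similar pattern over the 12 families were found by Pearson r of log2(CPM + 1) among 1907 genes. These are descriptions over families of 1 library that share its depth and free RNA. For Cdkn1b the closest were Sla (r = 0.87), Cdkn2d (0.85) and Gm8995 (0.85), and Cdkn1b was in turn among the 3 closest to Cdkn2d, after Dnajb1 (0.86) and Srsf5 (0.86). For Btg1 the closest was Cd247, which encodes the CD3 zeta chain (0.81), and for Btg2 it was Ppp4c (0.89). For Tob1 it was Zfp800 (0.96), for Rbl2 it was Esd (0.81) and for Cdk6 it was Fryl (0.95). Tomm22 (0.82) and Rpl10a (0.82) were among the 3 closest to Ccnd2, and for Ccnd3 the closest were Anapc13 (0.90), Maf1 (0.88) and Stub1 (0.85). Of the 27 genes chosen by this rule, 5 were among the first 10 when families of 30 or more cells were used, so most of these neighbours depend on which families enter.

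Few cells carried 2 or more markers of the dividing cell. With a list of 20 cycling markers such as Mki67, Top2a and Ccnb2, none of them among the 9 genes, 28 of 10338 cells (0.271%) had at least 2. At least 1 was seen in 1.68% to 13.6% of the cells of each of the 12 families. They held 155205 UMIs, with a median of 4636 per cell, against 1919 in other cells. All 28 had a T cell marker, 7 were in the top 1% of cells by UMIs, 2 carried 2 TRB and 1 had 2 B cell markers. Of all genes tested, 13.9% of 8311 were called between these cells and the others, 679 higher and 478 lower. Of the 9 genes, 1 was higher and 4 were lower, and the median ratio was 0.666 for the 9 genes and 0.932 for all genes tested.

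The 4 lower genes were brakes. Cdkn2d had 5 UMIs and 32.2 CPM in cycling-marker cells, against 131 CPM in other cells, a ratio of 0.246 (0.0798 to 0.575). Cdkn1b had 14 UMIs and 90.2 CPM, against 162 CPM in other cells, a ratio of 0.556 (0.304 to 0.934). Btg1 had 348 CPM in cycling-marker cells and 522 CPM in other cells, a ratio of 0.666 (0.50003 to 0.870), and Btg2 had 142 and 234 CPM, a ratio of 0.606 (0.379 to 0.918). The other 2 brakes were not called. Tob1 had 2 UMIs and a ratio of 0.290 (0.0351 to 1.05). Rbl2 had 142 CPM in cycling-marker cells and 131 CPM in other cells, a ratio of 1.08 (0.678 to 1.64).

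On the other side, Cdk6 had 9 UMIs in 7 of the 28 cells, 58.0 CPM, against 13.7 CPM in other cells, a ratio of 4.23 (1.92 to 8.15). Neither D cyclin was called. Ccnd2 had 180.4 CPM in cycling-marker cells and 148 CPM in other cells, a ratio of 1.22 (0.807 to 1.76). Ccnd3 had 155 and 136 CPM, a ratio of 1.14 (0.727 to 1.69).

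These cells are few and deep. Leaving out barcodes with 2 TRB and the 1% with most UMIs left 19 cycling-marker cells, in which only Cdkn2d was still called, at 0.214 (0.0259 to 0.773). Btg1 then stood at 0.752 (0.4996 to 1.09), Btg2 at 0.719 (0.371 to 1.26), Cdkn1b at 0.516 (0.189 to 1.12) and Cdk6 at 3.10 (0.636 to 9.16). In the 9 cells with 3 or more markers, Btg1 stood at 0.403 (0.225 to 0.664), Btg2 at 0.180 (0.0370 to 0.525) and Cdk6 at 8.19 (3.51 to 16.4). Against other cells of like depth, Cdkn2d stood at 0.2503 (0.0812 to 0.585), Btg2 at 0.634 (0.397 to 0.961) and Cdk6 at 3.98 (1.80 to 7.69). Cdkn1b, at 0.603 (0.329 to 1.01), and Btg1, at 0.680 (0.510 to 0.888), were no longer called there. With markers counted after thinning (11 cells), Cdkn2d stood at 0.349 (0.0719 to 1.02) and Cdkn1b at 0.567 (0.208 to 1.24). Neither was called in that setting. All cycling-marker cells together held lower immediate early transcripts, with 11 of 14 genes tested lower, against 478 of all 8311 genes tested. Among the 11 was Fos at 0.314 (0.196 to 0.475). The part of this in the Btg2 and Cdkn1b levels was not tested.

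**Figure D5:**
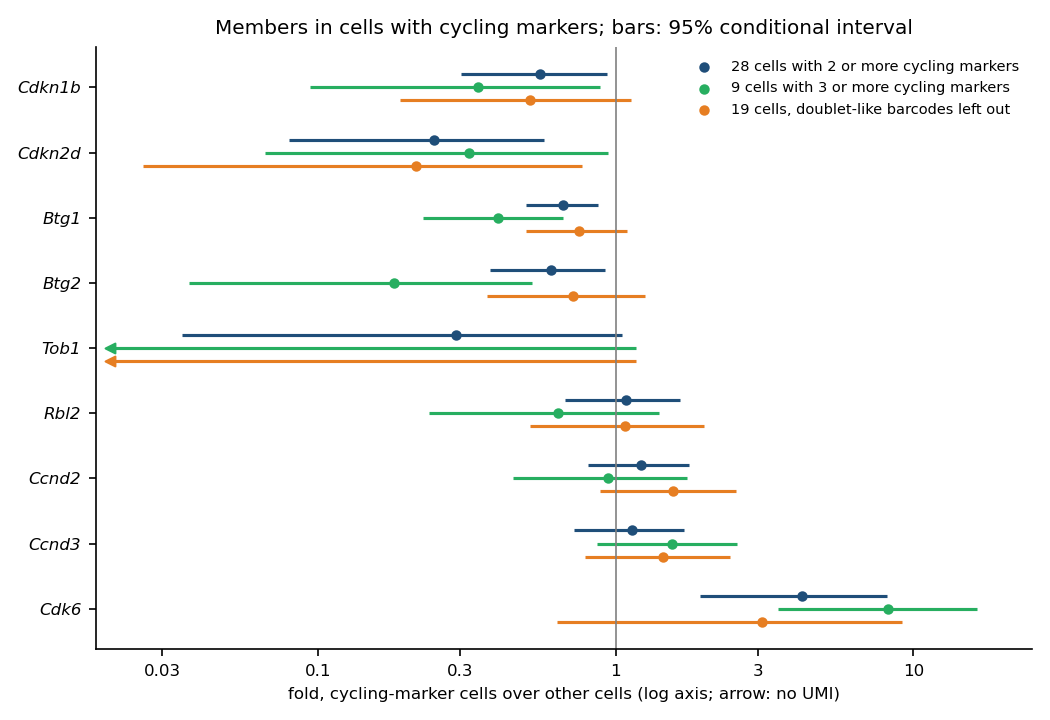
Ratio of each of the 9 genes in cycling-marker cells over other cells, on a log axis. Blue points are the 28 cells with 2 or more markers, green the 9 cells with 3 or more, and orange the 19 cells left without doublet-like barcodes. Bars are 95% conditional intervals, and arrows mark no UMI. Cdkn2d lies at 0.246, 0.322 and 0.214, and Cdk6 at 4.23, 8.19 and 3.10.

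The wider pathways were described with lists of their genes. All 7 CDK inhibitor genes had UMIs. Besides Cdkn1b and Cdkn2d, Cdkn1a (p21), the p53 target, stood at 7.27 CPM, Cdkn1c at 0.763 CPM, Cdkn2a at 10.7 CPM, Cdkn2b at 10.2 CPM and Cdkn2c at 23.1 CPM. None of the other 3 inhibitors tested was called in cycling-marker cells. Of the BTG and TOB family, Btg3 (53.6 CPM) was called higher in cycling-marker cells, at 1.81 (1.01 to 3.001), and so lay on the other side of Btg1 and Btg2. Tob2 (47.4 CPM) stood at 0.814 (0.298 to 1.78).

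Of the genes of the CCR4-NOT and PAN deadenylases and the poly(A)-binding protein, 2 of 11 tested were called in any family, against 57.2% of all genes tested. In cycling-marker cells 1 of 13 was higher, Cnot9 at 3.51 (1.502 to 6.997), and 2 were lower, Cnot1 at 0.328 (0.0676 to 0.961) and Pan3 with no UMI. Of all 8311 genes tested in these cells, 679 were higher and 478 lower. Of the 13 pocket protein and DREAM genes, Tfdp1, the dimer partner of E2F proteins, was higher at 3.95 (2.09 to 6.82), and Lin37, a DREAM subunit, was lower at 0.118 (0.00298 to 0.658) from 1 UMI. Rb1 (40.0 CPM) and Rbl1 (24.9 CPM), the other pocket protein genes, were not called there.

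Of all 8311 genes tested in cycling-marker cells, 679 were higher and 478 lower. Of the 12 G1 cyclins, kinases and E2Fs, 6 could be tested there, and 4 were higher and none lower. Cdk4, the other kinase of D cyclins, stood at 187 CPM in cycling-marker cells and 85.2 CPM in other cells, a ratio of 2.19 (1.47 to 3.16). Ccne1 stood at 2.53 (1.01 to 5.27) from 7 UMIs and E2f3 at 4.67 (2.00 to 9.36) from 8 UMIs. Both kinases of D cyclins were called higher in the 28 cycling-marker cells, and the D cyclins were not called. Without doublet-like barcodes Cdk6 was no longer called, at 3.10 (0.636 to 9.16). In that setting Ccnd2 stood at 1.55 (0.887 to 2.53) and Ccnd3 at 1.44 (0.788 to 2.43), with intervals that hold 1. Cdk4 was not tested there, and kinases and cyclins were not tested against each other. In the 28 cells the interval of Cdk4 overlapped those of Ccnd2 (0.807 to 1.76) and Ccnd3 (0.727 to 1.69). That of Cdk6 (1.92 to 8.15), from 9 UMIs, lay above both. Of 11 S phase genes tested in the 28 cells, 10 were higher, among them Pcna at 3.47 (2.67 to 4.44) and Mcm5 at 7.25 (4.38 to 11.4).

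Known quiescence factors of T cells were lower in part. Of 15 tested, 7 were lower in cycling-marker cells and none higher, against 478 lower and 679 higher of all 8311 genes tested. Klf2, which keeps T cells resting and directs their homing, stood at 1289 CPM in cycling-marker cells and 2621 CPM in other cells, a ratio of 0.492 (0.426 to 0.565). Slfn2 stood at 0.420 (0.274 to 0.615), Txnip at 0.428 (0.320 to 0.562), Foxo1 at 0.361 (0.145 to 0.745) and Foxp1 at 0.582 (0.365 to 0.882). Bach2 stood at 1.2995 (0.621 to 2.40) and Pik3ip1 at 0.881 (0.503 to 1.43), and neither was called. Over families, 11 of 12 of these factors tested were called in at least 1, against 57.2% of all genes tested.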

How the data were processed

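The deposited RNA matrix gives raw UMI counts, unnormalized, and the deposited contig table a count of UMIs per assembled TCR contig. Cutadapt 1.17, STAR 2.6.1a, featureCounts 2.0.1 and GRCm38 are named in the submitters' processing notes, with no role given. The tool that assembled TCR contigs is not given here. Kept cells had 200 genes or more and less than 20% mitochondrial UMIs, and 49 barcodes failed. Rows naming no gene numbered 0. Counts were summed over cells and divided by all UMIs (CPM). Levels have exact Poisson, ratios exact conditional and shares exact Clopper-Pearson intervals, all at 95%. A count of 0 was set against 3 counts over the group. No doublet caller was run, and doublets were treated as present. Libraries were joined on the barcode, and cells with exactly 1 productive TRB were grouped by its CDR3 nucleotide sequence. Depth ran from 815 to 4244 UMIs per cell between the 5th and 95th percentiles, and no barcode of the matrix had under 500. Similar genes needed at least 500 UMIs in the families and a 1.5-fold range, and the 3 closest per gene were taken, with a pseudocount of 1 CPM. A gene among them is not reported here. The genes and lists were chosen with earlier results of these data known. Scripts were tested on simulated data and used python 3.11.15, numpy 2.4.6, scipy 1.17.1, pandas 2.3.3 and matplotlib 3.10.9. Other filters, totals, thinning depths, family definitions and marker minimums were tried as alternatives.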

Additional observations from a re-analysis of the deposited data

How the results depend on the processing

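No paired analysis was possible because there is 1 RNA library, 1 TCR library and no replicate. Without replicates, the spread between mice cannot be told apart from the differences given. Of alternatives tried, 53 family ratios, 35 cycling-marker ratios and 41 levels stayed within the interval of the value in the report. Outside it lay 2 family ratios, 10 cycling-marker ratios and 13 levels, and 1 more family ratio reversed. A ratio that stayed within the interval could still lose its call, as Cdk6 did in cycling-marker cells without doublet-like barcodes. Shares followed depth. Thinned to 500 UMIs they were 8.17% for Cdkn1b, 6.53% for Cdkn2d, 21.6% for Btg1, 10.8% for Btg2, 2.11% for Tob1, 6.12% for Rbl2, 6.58% for Ccnd2, 6.07% for Ccnd3 and 0.638% for Cdk6. With no thinning they were 26.2%, 20.5%, 57.4%, 34.1%, 8.10%, 21.1%, 21.0%, 21.8% and 2.42% in the same order of genes. Weighting each cell equally gave 173 CPM for Cdkn1b, 533 for Btg1, 243 for Btg2 and 139 for Ccnd2. A total without ribosomal, mitochondrial, Gm42418 and Malat1 UMIs gave 222 CPM for Cdkn1b, 179 for Cdkn2d, 715 for Btg1, 320.5 for Btg2, 60.7 for Tob1, 179.6 for Rbl2, 204 for Ccnd2, 187 for Ccnd3 and 19.2 for Cdk6, by its smaller denominator.

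With the main TRA only, Ccnd2 in TRBV12-1 TRBJ2-4 was at 3.92, Ccnd3 in TRBV13-3 TRBJ2-1 at 2.53, Tob1 in TRBV12-2 TRBJ1-1 turned to 0.675 from 1 UMI, and 5 pairs were called in place of 8. These were 3 of the 8 (both cyclin calls just given and Rbl2 in TRBV12-2+TRBV13-2 TRBJ2-3) and 2 for Cdkn2d (1.71 and 0.627). That setting has fewer cells. Other settings gave 7 to 11 pairs. With 3 or more cycling markers (9 cells) the ratio was 0.403 for Btg1, 0.180 for Btg2, 0 for Tob1, 0.642 for Rbl2 and 8.19 for Cdk6. With markers counted after thinning (11 cells) it was 0.497 for Btg1, 0.327 for Btg2, 0 for Tob1 and 0.467 for Rbl2. Cdkn2d, at 0.349 (0.0719 to 1.02), and Cdkn1b, at 0.567 (0.208 to 1.24), lost their calls in that setting. Without doublet-like barcodes Tob1 was at 0. Calls among the 9 genes in cycling-marker cells then numbered 3 after thinning, 1 without doublet-like barcodes, 3 against cells of like depth and 2 within the deepest bin, against 5 in the report. Among genes with at least 1000 UMIs in the families, 0 of the 2 listed genes left lay above the median spread. Of 27 similar genes, 16 were in the first 10 by Spearman rho and 5 with families of 30 or more cells. The cause of these shifts was not tested. In the family with fewest UMIs, 91810, the floor of 3 UMIs stood at 32.7 CPM, and a count of 0 had an interval up to 40.2 CPM.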
